A study of Chlamydomonas reinhardtii with 28 samples.

Results

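CC-125 and CC-1690 are mt+ laboratory strains of *Chlamydomonas reinhardtii*, a unicellular green alga, and their basal transcriptomes were compared here. The comparison took the 4 libraries of CC-125 and the 4 libraries of CC-1690, chosen by their labels, from a series of 28 libraries of 7 wild-type strains. All cultures were grown photoheterotrophically, in light with acetate as a carbon source (TAP medium with Kropat's trace nutrients), shaken at 180 rpm under continuous light of 50 to 70 µmol photons m-2 s-1, and were collected in mid-log phase without treatment. Poly-adenylated RNA was sequenced and expression was given as FPKM, read fragments scaled to transcript length and library size. The library names put CC-125, with the mt- strain CC-4533, in set 2, and CC-1690, with the remaining 4 strains (CC-124, CC-1009, CC-1691 and CC-4532, all mt-), in set 1, so that the strain and the library set cannot be told apart within this pair. A strain name stands for 1 laboratory stock, and the stocks compared come from a shared laboratory ancestor.

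*Chlamydomonas* swims with a pair of flagella, is surrounded by a glycoprotein wall and fixes carbon in a single chloroplast. When inorganic carbon is scarce, it induces a carbon-concentrating mechanism, in which transporters, channels and carbonic anhydrases bring bicarbonate to Rubisco in the pyrenoid. When oxygen is scarce, it induces hydrogenases and fermentation enzymes. CC-125 is known to carry mutations in the nitrate assimilation genes nit1 and nit2, whereas CC-1690 is a strain that can use nitrate.

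The libraries of a strain resembled each other more than they resembled the other strain. Across the tested genes, Pearson's r of log2(FPKM + 1) was 0.989 to 0.996 between CC-125 libraries, 0.982 to 0.995 between CC-1690 libraries and 0.866 to 0.905 between the strains. FPKMs carry no read numbers, and the depth of a library is known only relative to the others. Estimated from the steps between low FPKMs, it was 1.22 to 1.47 in CC-125 and 0.585 to 0.819 in CC-1690. The FPKMs summed to between 733381 and 883018 in CC-125 and between 794084 and 1319895 in CC-1690, with the largest sum in CC-1690 replicate 2. MID1, the gene that sets minus identity, had 0 to 0.05 FPKM in CC-125 and 0 to 0.08 FPKM in CC-1690, against 3.12 FPKM or more in each mt- library, and MTD1, another gene of the minus locus, was at most 0.07 FPKM in both strains and 0.05 to 2.81 FPKM in the mt- libraries. FUS1, the fusion protein of plus gametes, was at most 0.10 FPKM in the 8 libraries and 0 in CC-1690 replicate 2 and in all mt- libraries, too low to mark a library. Of the mating-type a region, Cre06.g253051 was at 10.6 to 11.5 FPKM in CC-125, 14.5 to 20.2 FPKM in CC-1690 and 0.78 to 4.99 FPKM in the mt- libraries, and Cre06.g252892 at 3.97 to 4.50, 5.29 to 6.23 and 0.84 to 1.86 FPKM. MID1 and these a-region genes separated the 8 libraries from the mt- libraries without overlap.

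A differentially expressed gene (DEG) had a strain mean above 1 FPKM in CC-125 or CC-1690 and a difference of more than 2-fold by limma's treat test at an adjusted p-value below 0.01. Of 13804 genes tested, 1455 (10.5%) were DEGs, 897 (6.50%) of them higher in CC-125 and 558 (4.04%) higher in CC-1690. The 4 libraries of CC-125 lay wholly above or wholly below those of CC-1690 in each of the 1455 DEGs, and in 8816 (63.9%) of all genes tested, 33.3% with CC-125 above and 30.5% with CC-1690 above. The median absolute log2 difference of the DEGs was 2.24, on the scale of log2(FPKM + 0.1) that is used throughout, and 155 DEGs exceeded a 16-fold difference, 104 higher in CC-125 and 51 higher in CC-1690. By limma's moderated test against no change (adjusted p-value below 0.05), 4937 genes (35.8%) were higher in CC-125 and 4588 (33.2%) were higher in CC-1690, and the median difference over all genes tested was 0.02. The counts in the gene lists below are to be read beside the shares over all genes, 10.5% DEGs and 69.0% called by the moderated test. With CC-1690 replicate 2 left out there were 1381 DEGs, and with CC-125 replicate 1 left out there were 1264.

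**Figure D1:**
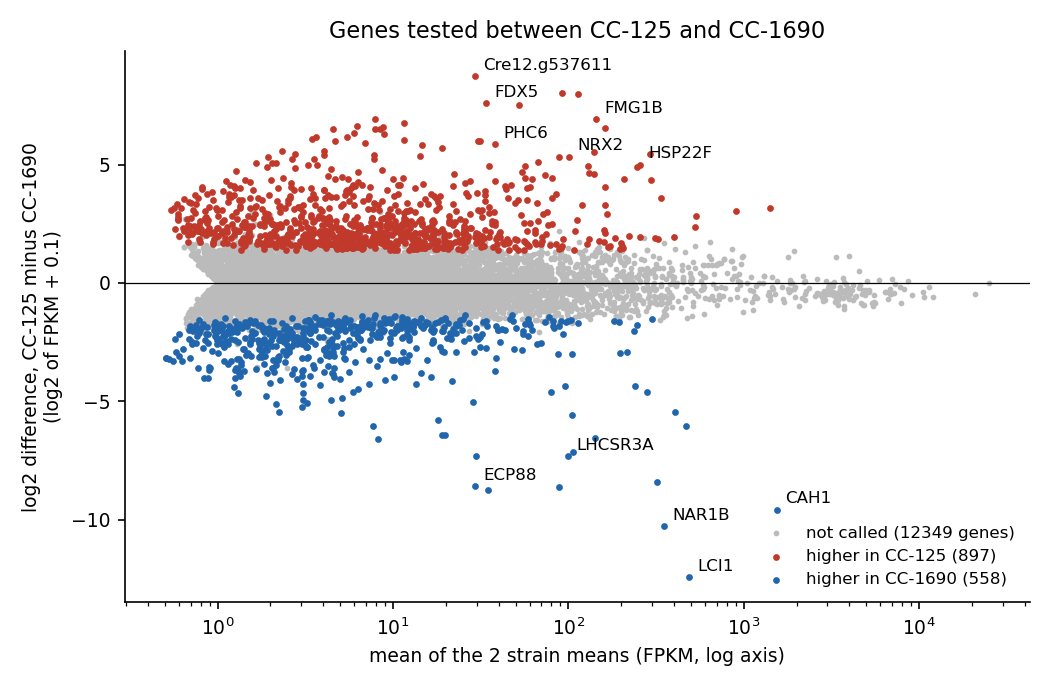
Each point is 1 of 13804 genes, with the mean of the strain means on the x axis (FPKM, log axis) and the log2 difference of CC-125 from CC-1690 on the y axis. DEGs higher in CC-125 are red (897), those higher in CC-1690 are blue (558), and the carbon genes LCI1, NAR1B and CAH1 lie lowest, at -12.44, -10.27 and -9.58.

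The largest differences of the comparison were in genes for the uptake of inorganic carbon, which were strongly expressed in CC-1690 and nearly silent in CC-125. Of 41 genes in a list of inorganic carbon uptake and low-CO2 genes, all were tested, 18 were DEGs higher in CC-1690 and 3 were DEGs higher in CC-125. The median difference of the list was -0.86, and the moderated test called 25 members higher in CC-1690 and 8 higher in CC-125. LCI1, a plasma membrane protein of bicarbonate uptake, was listed at 0.04, 0.03, 0.10 and 0.14 FPKM in CC-125 and at 1094, 704, 1083 and 994 FPKM in CC-1690 (log2 difference -12.44, standard error 0.21, adjusted p = 1.44e-24). NAR1B, also known as LCIA, the bicarbonate channel of the chloroplast envelope, was at 1.10, 0.32, 0.20 and 0.58 FPKM in CC-125 and at 717, 616, 738 and 726 FPKM in CC-1690 (-10.27 ± 0.24). No library of either gene came near those of the other strain. CAH1, the periplasmic carbonic anhydrase, was the most abundant DEG higher in CC-1690, at 3381, 3257, 2907 and 2801 FPKM, against 4.43, 3.07, 2.41 and 7.10 FPKM in CC-125 (-9.58 ± 0.23).

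Other parts of the uptake route followed the same direction. HLA3, the bicarbonate ABC transporter of the plasma membrane, was at 2.81 ± 0.160 FPKM (SD, n = 4) in CC-125 and 282 ± 81.1 FPKM in CC-1690 (log2 difference -6.54). The mitochondrial carbonic anhydrases CAH5 (13.8 ± 0.718 and 925 ± 141 FPKM) and CAH4 (17.7 ± 1.35 and 791 ± 132 FPKM) kept a higher level in CC-125 and differed by -6.04 and -5.46. The carriers CCP1 (1.80 ± 0.406 and 635 ± 98.4 FPKM) and CCP2 (4.24 ± 0.957 and 205 ± 19.8 FPKM), the low-CO2-inducible gene LCI23 (0.348 ± 0.0954 and 177 ± 46.7 FPKM), LCID1 (-5.02), LCIE1 (-4.06) and the thylakoid bestrophin BST1 (-3.26) were also DEGs. LCR1, a MYB transcription factor of the low-CO2 response, differed by -6.42 (0.355 ± 0.153 and 37.5 ± 5.34 FPKM). CAH1 and CAH2, CAH4 and CAH5, and CCP1 and CCP2 are close copies, and since reads with several locations were placed at 1 of them at random, the split within these pairs is uncertain.

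Not every gene of the pathway was a DEG in that direction. CCM1, also known as CIA5, the regulator needed for the low-CO2 response, was at 18.2, 14.6, 18.3 and 17.2 FPKM in CC-125 and at 9.63, 6.56, 6.44 and 7.88 FPKM in CC-1690, higher in the strain where its target genes were lower (log2 difference 1.16, standard error 0.13), although it was not a DEG (adjusted p = 0.579). The stromal proteins LCIB1 (-0.53 ± 0.28) and LCIC1 (-1.19 ± 0.28) and the pyrenoid linker EPYC1 (1.45 ± 0.26) were not DEGs either (adjusted p = 1.0, 1.0 and 0.297). For EPYC1 the libraries did not overlap, with 1146 to 1356 FPKM in CC-125 and 390 to 612 FPKM in CC-1690. Nor did those of LCIC1, which were lower in CC-125 at 104 to 168 FPKM than in CC-1690 at 240 to 315 FPKM. The moderated test called LCIC1 higher in CC-1690 (adjusted p = 0.000493). The 3 members of the list that were DEGs in the opposite direction were the carbonic anhydrase CAH8 (113 ± 12.9 and 7.15 ± 2.86 FPKM, log2 difference 4.05), LCI33 (3.85) and LCI26 (1.73), the last of which was not a DEG with a pseudocount of 1 or after quantile normalization.

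CC-125 was not alone in its low level of these genes. The 18 DEGs higher in CC-1690 summed to means of 98.7 FPKM in CC-125, 50.1 FPKM in CC-4533 and 79.3 FPKM in CC-124, and to 3295 FPKM in CC-1691, 5674 FPKM in CC-1009, 8421 FPKM in CC-1690 and 8958 FPKM in CC-4532. All 18 were nearer to the CC-125 level in CC-4533 and in CC-124, none was in CC-1009 or CC-4532, and 2 were in CC-1691, one of them CAH1 at a mean of 4.73 FPKM. CC-124 belongs to the same library set as CC-1690, so the low level was measured in both sets. The sum ran from 85.5 to 109 FPKM over the libraries of CC-125 and from 7478 to 9336 FPKM over those of CC-1690. In CC-4533 it was 34.4, 35.3, 95.0 and 36.0 FPKM, so that replicate 3 raised the mean of that strain.

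**Figure D2:**
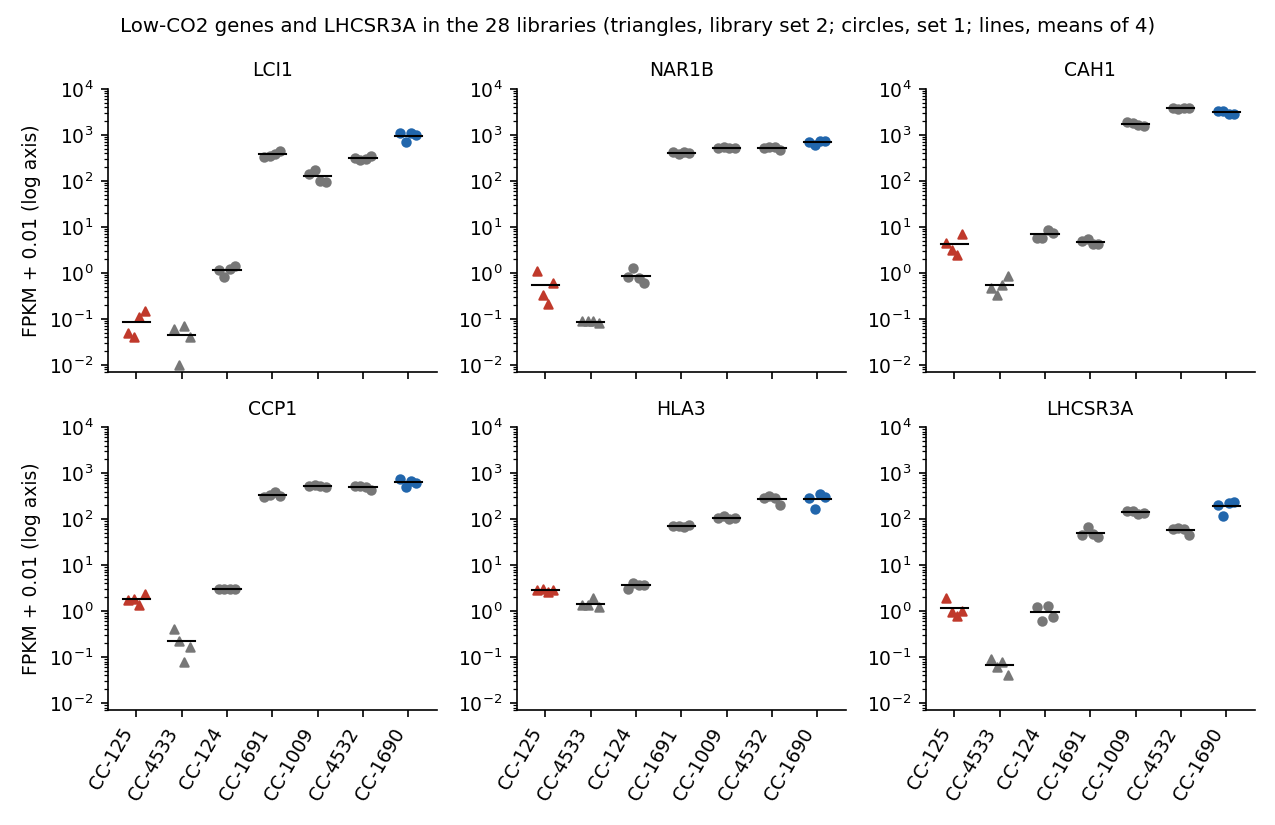
FPKM + 0.01 (log axis) of 5 low-CO2 genes and LHCSR3A in each of the 28 libraries, by strain, with CC-125 in red, CC-1690 in blue, triangles for library set 2, circles for set 1 and lines for the means of 4. CC-125, CC-4533 and CC-124 are low in each gene (LCI1 means of 0.0775, 0.035 and 1.15 FPKM), and CAH1 is low in CC-1691 too.

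The photoprotection genes LHCSR3A and LHCSR3B, near-identical antenna proteins that quench excess light energy, showed the same contrast. LHCSR3A was at 1.92, 0.96, 0.76 and 1.01 FPKM in CC-125 and at 206, 115, 230 and 243 FPKM in CC-1690 (log2 difference -7.32, standard error 0.25, adjusted p = 2.48e-17), and LHCSR3B differed by -7.15 ± 0.30. LHCSR1, a related protein, did not pass the test at 27.5 ± 8.03 and 22.7 ± 5.20 FPKM (0.26 ± 0.24), and its libraries overlapped. In the opposite direction, PTOX1, the plastid terminal oxidase that takes electrons from plastoquinol to oxygen, was at 92.3, 138, 122 and 153 FPKM in CC-125 and at 17.4, 20.5, 14.6 and 14.0 FPKM in CC-1690 (2.91 ± 0.14, adjusted p = 2.46e-11). It was at 12.7 to 51.9 FPKM in the other 20 libraries, with means of 42.7 FPKM in CC-4533 and 14.4 to 18.5 FPKM in the other strains. Of the 13 genes listed under photoprotection 11 were tested, and these 3 were the DEGs (median of the list 0.19).

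Of 25 listed genes of hydrogen production and fermentation, all were tested and 8 were DEGs, each higher in CC-125. The median of the list was 0.56, and by the moderated test 16 members were higher in CC-125 and 4 were higher in CC-1690. FDX5, a ferredoxin induced in Chlamydomonas without oxygen or copper, was at 99.2, 44.8, 77.1 and 50.1 FPKM in CC-125 and at 0.44, 0.60, 0.21 and 0 FPKM in CC-1690 (log2 difference 7.61, standard error 0.56, adjusted p = 2.34e-10). HYDA1, the main iron hydrogenase, was at 159, 150, 174 and 154 FPKM in CC-125 and at 9.92, 9.85, 12.7 and 15.1 FPKM in CC-1690 (3.75 ± 0.14). The groups were far apart in both genes, although FDX5 varied more within CC-125 than HYDA1.

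The second hydrogenase and the factors that assemble the active site moved in the same direction as HYDA1. HYDA2 was at 28.2 ± 2.33 and 5.05 ± 0.388 FPKM (SD, n = 4) in CC-125 and CC-1690, HYDEF1 at 18.7 ± 1.64 and 1.82 ± 0.398 FPKM, and HYDG1 at 82.3 ± 7.17 and 4.82 ± 0.800 FPKM. PFL1, the pyruvate-formate lyase of fermentation, differed by 1.87 (511 ± 27.9 and 140 ± 17.6 FPKM). NRX2, one of the 8 DEGs of the list, is annotated as a nucleoredoxin and not as an enzyme of hydrogen production or fermentation. It was at 164, 207, 185 and 226 FPKM in CC-125 and at 4.50, 7.69, 3.53 and 3.92 FPKM in CC-1690 (5.34 ± 0.26). Its mean in CC-4533 was 8.0 FPKM, and its neighbour NRX3 differed by 3.79 ± 0.36. PFR1, the pyruvate ferredoxin oxidoreductase that can feed the hydrogenase, was low in both strains and did not pass the test (1.24 ± 0.344 and 0.573 ± 0.174 FPKM, 1.00 ± 0.21). Of the 8 DEGs, 6 were nearer to the CC-125 level in CC-4533, 3 in CC-124, 2 in CC-1691, 1 in CC-1009 and 0 in CC-4532. HYDA1 averaged 137 FPKM in CC-4533 and 23.2 to 50.8 FPKM in the set 1 strains other than CC-1690, and the part of the library set in these differences was not tested.

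FDX5 and several other genes that Chlamydomonas induces when copper is short were compared as well, chosen after their values were seen. CHL27A, the aerobic cyclase of chlorophyll synthesis known as CRD1, was at 585, 575, 691 and 628 FPKM in CC-125 and at 45.7, 88.2, 37.9 and 46.1 FPKM in CC-1690 (log2 difference 3.58, standard error 0.31, adjusted p = 1.5e-07). Its counterpart CHL27B, expressed when copper is present, was lower in CC-125 at 212 ± 19.6 FPKM than in CC-1690 at 485 ± 70.4 FPKM (-1.19 ± 0.15), with no overlap, but was not a DEG. The copper transport accessory protein CTR3 was a DEG (48.5 ± 6.25 and 10.9 ± 0.705 FPKM, 2.13 ± 0.22), whereas CTR2 (1.34 ± 0.30), CTR1 (0.39 ± 0.21), CPX1 (0.84 ± 0.41) and the copper regulator CRR1 (0.83 ± 0.10) were not. CYC6, the cytochrome that replaces plastocyanin without copper, went the other way, at 1.81, 1.51, 1.86 and 3.07 FPKM in CC-125 and at 7.02, 6.26, 10.5 and 10.3 FPKM in CC-1690 (-2.01 ± 0.33, adjusted p = 0.0258, not a DEG). The genes of this group thus did not share a direction.

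Small heat shock proteins of the chloroplast were higher in CC-125. HSP22F was at 539, 459, 455 and 522 FPKM in CC-125 and at 20.3, 20.6, 10.1 and 13.0 FPKM in CC-1690 (log2 difference 5.0, standard error 0.28, adjusted p = 5.26e-12), and its close neighbour HSP22E, with which it may share reads, was at 559 ± 58.1 and 28.7 ± 9.10 FPKM (4.33 ± 0.31). The highest value of HSP22F in the other 20 libraries was 113 FPKM, and its mean was 5.80 FPKM in CC-4533, the other strain of set 2. Of 47 heat shock proteins and chaperonins, 41 were tested, 7 were DEGs higher in CC-125 and none was a DEG higher in CC-1690, where the moderated test called 9 (median of the list 0.40, with 17 higher in CC-125 by the moderated test). The DEGs were 17.1% of the tested list, against 10.5% of all genes. By the moderated test the share was 63.4%, against 69.0% of all genes. The count of DEGs fell to 4 without CC-125 replicate 1. HSP22C, at about 1 FPKM in CC-125 (1.10 ± 0.159 and 0.165 ± 0.116 FPKM, adjusted p = 0.00989), lost its call with most libraries left out (adjusted p up to 0.077 without CC-1690 replicate 4).

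A list of chloroplast protein quality control, put together after these values were seen, held 20 genes, of which 7 were DEGs higher in CC-125 and none was a DEG higher in CC-1690, with 16 and 1 by the moderated test and a median of 1.00. Beyond the HSP22 genes it included DEG1C, a protease of the stroma, at 140, 107, 104 and 119 FPKM in CC-125 and 5.71, 7.76, 3.62 and 5.70 FPKM in CC-1690 (4.38 ± 0.24). VIPP2, a stress-induced membrane protein that acts with HSP22E and HSP22F, was at 83.8 ± 4.13 and 7.19 ± 2.16 FPKM, VIPP1 at 244 ± 16.5 and 75.4 ± 13.1 FPKM, and the disaggregase CLPB3 at 47.6 ± 2.12 and 12.8 ± 1.25 FPKM. None of the 7 DEGs was nearer to the CC-125 level in CC-4533, and 1 was in CC-124.

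Components of the cell wall formed the list with the most DEGs. Pherophorins are hydroxyproline-rich glycoproteins of the extracellular matrix. Of 75 genes for pherophorins and other wall proteins 62 were tested, 25 were DEGs higher in CC-125 and 5 were DEGs higher in CC-1690, with 47 and 8 by the moderated test and a median of 1.47. PHC6 was at 163, 39.7, 54.2 and 43.1 FPKM in CC-125 and at 1.02, 0.93, 0.90 and 1.04 FPKM in CC-1690 (log2 difference 5.87, standard error 0.38, adjusted p = 5.02e-11), so that replicate 1 of CC-125 was far above its group but all 4 were above CC-1690. PHC5 was at 366, 228, 284 and 202 FPKM in CC-125 and at 11.5, 16.4, 7.71 and 9.47 FPKM in CC-1690 (4.59 ± 0.29), and PHC36 at 27.8 ± 7.41 and 0.578 ± 0.139 FPKM (5.35 ± 0.28). PHC2 was the most abundant of them at 882 ± 235 and 166 ± 18.2 FPKM (2.38 ± 0.19). PHC66 was the pherophorin with the largest difference in the other direction (1.27 ± 0.404 and 14.9 ± 1.08 FPKM, -3.49 ± 0.19).

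Of the 25 DEGs higher in CC-125, 17 were nearer to the CC-125 level in CC-124 and in CC-4533, 19 in CC-1009 and 21 in CC-1691 and CC-4532. PHC6 had means of 7.66 FPKM (CC-4533) to 68.6 FPKM in the other 5 strains, and PHC36 of 6.11 to 28.5 FPKM. Without CC-125 replicate 1 the counts were 22 and 4. The prolyl hydroxylase PFH3, of an enzyme family that modifies such proteins, was at 148 ± 24.9 and 12.5 ± 4.08 FPKM (3.59 ± 0.23). Its mean was 182 FPKM in CC-4533 and 4.8 to 49.7 FPKM in the set 1 strains other than CC-1690.

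Matrix metalloproteinases include enzymes that cleave wall proteins. Of 27 genes 21 were tested, 8 were DEGs and each was higher in CC-125, with a median of 1.13. The moderated test called 14 higher in CC-125 and 2 higher in CC-1690. MMP19 was at 11.0, 6.06, 6.76 and 6.87 FPKM in CC-125 and at 0.41, 0.88, 0.23 and 0.29 FPKM in CC-1690 (3.91 ± 0.26). MMP13 (16.1 ± 7.36 and 1.27 ± 0.246 FPKM) and MMP6 (5.25 ± 2.27 and 0.460 ± 0.155 FPKM) followed. MMP1, the gametolysin that removes the wall of mating gametes, was not a DEG at 83.2 ± 11.7 and 37.7 ± 0.825 FPKM (1.13 ± 0.14, adjusted p = 0.896).

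The major protein of the flagellar surface, FMG1B, was nearly absent from CC-1690. This membrane glycoprotein carries the adhesion and gliding of the flagella. It was at 374, 237, 275 and 251 FPKM in CC-125 and at 2.17, 2.48, 1.88 and 2.33 FPKM in CC-1690 (log2 difference 6.92, standard error 0.17, adjusted p = 2.59e-20). Its level was 40.5 FPKM or higher in every library of the other strains, with a mean of 57.7 FPKM in CC-4533 and 209 to 220.0 FPKM in the others. Of 450 genes for flagella 438 were tested, 16 were DEGs higher in CC-125 and 3 were DEGs higher in CC-1690, 4.34% of the list against 10.5% of all genes, and the median was 0.32. The moderated test called 185 higher in CC-125 and 73 higher in CC-1690. After FMG1B the largest differences were those of FAP338 (14.9 ± 1.94 and 1.78 ± 0.600 FPKM, 3.06) and FAP137 (133 ± 31.5 and 18.1 ± 9.11 FPKM, 2.98). The 3 DEGs higher in CC-1690 fell to 1 without CC-125 replicate 1 or CC-1690 replicate 2, and were 6 in a fit without CC-4533.

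NAP1, an actin-related protein that can take the place of the conventional actin, was at 282, 278, 264 and 266 FPKM in CC-125 and at 7.53, 9.13, 3.67 and 4.52 FPKM in CC-1690 (5.52 ± 0.24, adjusted p = 2.53e-14). IDA5, the conventional actin, was at 394 ± 32.3 and 428 ± 47.6 FPKM (-0.12 ± 0.13). The libraries of the strains were far apart in NAP1 and overlapped in IDA5. The means of NAP1 in the other strains lay between 4.42 FPKM (CC-4533) and 85.8 FPKM (CC-1009). FBB6L1, annotated as an FBB6-like protein, was at 130 ± 22.6 and 3.71 ± 0.905 FPKM (5.11 ± 0.26).

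**Figure D3:**
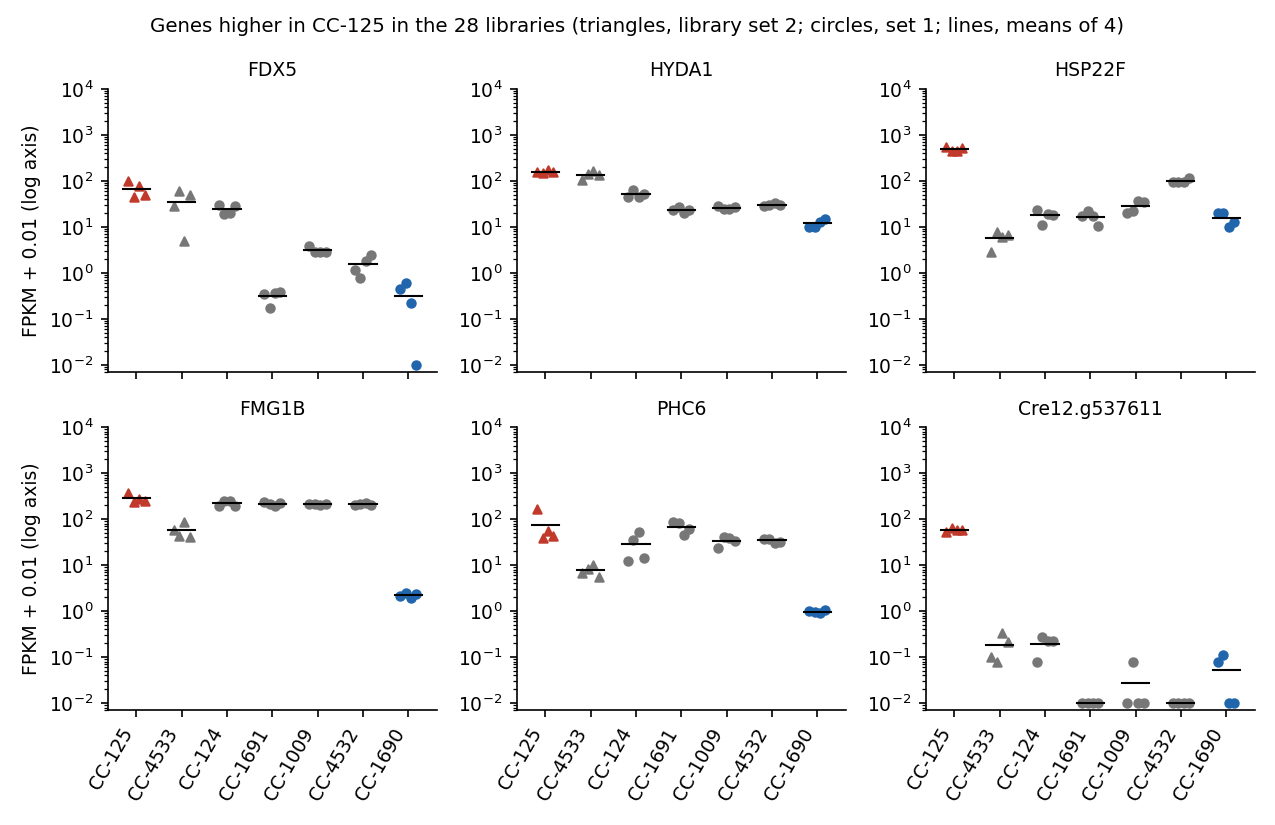
FPKM + 0.01 (log axis) of 6 genes that were higher in CC-125, in each of the 28 libraries by strain, with the colors and shapes of the plot of low-CO2 genes. FMG1B and PHC6 are lowest in CC-1690 and next lowest in CC-4533 (means of 57.7 and 7.66 FPKM), HSP22F and Cre12.g537611 are highest in CC-125, and FDX5 and HYDA1 have their highest means in CC-125 and CC-4533.

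Among genes of mating and the zygote, a pair of genes was far higher in CC-125. Cre12.g537611, annotated as a zygote-specific protein with a signal for a lipid anchor, was at 51.6, 64.9, 58.7 and 59.2 FPKM in CC-125 and at 0.07, 0.10, 0 and 0 FPKM in CC-1690 (log2 difference 8.75, standard error 0.28, adjusted p = 3.88e-18). No other library of the series exceeded 0.32 FPKM, CC-4533 included. GSP1, the homeobox protein of plus gametes, was at 9.33, 10.6, 9.29 and 10.2 FPKM in CC-125 and at 0.32, 0.27, 0.39 and 0.45 FPKM in CC-1690 (4.46 ± 0.21). It was not low in all mt- strains, with means of 25.8 FPKM in CC-1009 and 18.6 FPKM in CC-4532, which the labels call mt-. Of 34 listed genes 19 were tested, and these were the only DEGs higher in CC-125 (median -0.23, with 6 higher in CC-125 and 9 higher in CC-1690 by the moderated test). In either direction 15.8% of the tested list were DEGs, against 10.5% of all genes. The moderated test called 78.9%, against 69.0% of all genes. EZY7, an early zygote gene, was at 26.6 ± 5.58 and 86.6 ± 2.00 FPKM (-1.73 ± 0.21, adjusted p = 0.00803), a call that was lost with 6 of the 8 libraries left out in turn (adjusted p up to 0.0499 without CC-125 replicate 1). SAG1, the plus agglutinin, was at 1.26 ± 0.197 and 0.825 ± 0.124 FPKM and was not a DEG (0.55 ± 0.14).

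All DEGs among the genes of nitrogen uptake and assimilation were lower in CC-125. Of 45 genes 32 were tested and 10 were DEGs, each higher in CC-1690, while the median was 0.00 and the moderated test called 9 higher in CC-125 and 14 higher in CC-1690. NAR1B, named above, was one of the 10, and the others had means of 10.1 FPKM or less in CC-1690. The ammonium transporter AMT1A was at 0.05, 0.02, 0.02 and 0.04 FPKM in CC-125 and at 6.36, 3.18, 2.25 and 3.14 FPKM in CC-1690 (log2 difference -4.76, standard error 0.41). CNX6, which makes the molybdenum cofactor of nitrate reductase, was at 0.11, 0.18, 0.17 and 0.09 FPKM in CC-125 and at 6.19, 7.83, 5.72 and 4.29 FPKM in CC-1690 (-4.67 ± 0.21). AMT1H, AMT1D and the nitrate transporters NRT2D and NRT2E followed at -3.19, -3.16, -2.53 and -2.37, and these 4, at or below 1.57 FPKM in CC-1690, were not DEGs with a pseudocount of 1. NIT2, the transcription factor of nitrate assimilation, was at 8.46 ± 0.648 and 4.71 ± 0.396 FPKM, higher in CC-125 without being a DEG (0.83 ± 0.12). All 10 DEGs were nearer to the CC-125 level in CC-4533, 6 in CC-4532, 4 in CC-1691, 2 in CC-124 and 1 in CC-1009.

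For metals, phosphorus and sulfur, DEGs lay in both directions. Of 87 genes 73 were tested, 8 were DEGs higher in CC-125 and 5 were DEGs higher in CC-1690, with 31 and 27 by the moderated test and a median of 0.09. The DEGs were 17.8% of the tested list, against 10.5% of all genes, and the moderated test called 79.5%, against 69.0% of all genes. ECP88, an extracellular protein made when sulfur is short, was at 0.05, 0.02, 0.02 and 0.08 FPKM in CC-125 and at 97.2, 59.7, 39.9 and 37.3 FPKM in CC-1690 (log2 difference -8.59, standard error 0.63, adjusted p = 1.42e-10). ECP76, of the same kind, differed by -4.09 ± 0.38, and ARS1, an arylsulfatase, was at 0.795 ± 0.153 and 5.02 ± 2.04 FPKM. The zinc transporter ZRT5 (9.88 ± 1.01 and 39.4 ± 5.82 FPKM) was likewise higher in CC-1690. Transporters of the PTB family of phosphate transporters were DEGs in the other direction, with PTB9 at 5.40 ± 0.240 and 0.525 ± 0.132 FPKM (3.16 ± 0.25), PTB3 at 27.1 ± 1.97 and 6.85 ± 1.93 FPKM and PTB2 at 87.0 ± 7.13 and 26.8 ± 6.42 FPKM.

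Of 44 genes for starch and storage lipid 41 were tested and 7 were DEGs, each higher in CC-125 (median 0.36, with 20 higher in CC-125 and 7 higher in CC-1690 by the moderated test). The DEGs were 17.1% of the tested list, against 10.5% of all genes. By the moderated test the share was 65.9%, against 69.0% of all genes. SSS2, a starch synthase, was at 151, 104, 116 and 108 FPKM in CC-125 and at 11.8, 13.5, 9.98 and 10.8 FPKM in CC-1690 (log2 difference 3.36, standard error 0.22, adjusted p = 1.54e-09). The plastid lipid associated protein PLAP8 (9.26 ± 2.32 and 1.33 ± 0.259 FPKM) and the beta-amylase AMB2 (18.3 ± 5.51 and 3.84 ± 0.682 FPKM) followed. Of the 7 DEGs, 6 were nearer to the CC-125 level in CC-4533, 5 in CC-4532, 4 in CC-1009, 3 in CC-1691 and 1 in CC-124. SSS2 averaged 74.9 FPKM in CC-4533 and 13.8 to 38.0 FPKM in the set 1 strains other than CC-1690. In a list of autophagy genes chosen after the values were seen, 6 of 14 were DEGs, each higher in CC-125 (median 1.08, with 10 and 2 by the moderated test). ATG17 was at 17.3 ± 1.67 and 1.90 ± 0.172 FPKM, ATG7 at 6.67 ± 0.572 and 1.17 ± 0.204 FPKM and ATG13 at 4.61 ± 0.473 and 0.952 ± 0.167 FPKM, and 4 of the 6 were DEGs without CC-125 replicate 1 and also without CC-1690 replicate 2.

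Acetate was the organic carbon source in all cultures, and the genes that assimilate it were compared in a list of 8, also chosen after the values were seen. None was a DEG with all libraries, and by the moderated test 6 were higher in CC-125 and 2 were higher in CC-1690, with a median of 1.11. ICL1, the isocitrate lyase of the glyoxylate cycle, was at 2381, 2545, 2413 and 2381 FPKM in CC-125 and at 920, 1134, 1218 and 1246 FPKM in CC-1690 (log2 difference 1.11, standard error 0.10). ACS3, an acetyl-CoA synthetase, came closest to the threshold at 786 ± 142 and 269 ± 45.3 FPKM (1.54 ± 0.16, adjusted p = 0.0106), and it was a DEG without CC-1690 replicate 3 (adjusted p = 0.00596), in a fit without CC-4533 (0.00348), with the filter at 5 FPKM (0.009) and with the replicate block (0.00918). PCK1 (1.14 ± 0.10) and CIS2 (1.14 ± 0.09) differed by nearly the same factor as ICL1. In CC-4533, the other strain of set 2, the means of ICL1, ACS3, PCK1 and CIS2 were 1863, 642, 935 and 390 FPKM. In the set 1 strains other than CC-1690 they were 791 to 1183, 278 to 553, 445 to 666 and 176 to 346 FPKM. The part of the library set in these differences was not tested.

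None of 39 genes for the photosystems and their antennae was a DEG (limma's treat test), although the moderated test called 19 higher in CC-1690 and 1 higher in CC-125, and the median was -0.37. The largest differences were those of LHCBM6, an antenna protein (2463 ± 344 and 4980 ± 1386 FPKM, log2 difference -0.99), PSAE1 (-0.99) and PSAH1 (-0.98), subunits of photosystem I. These differences moved with the scaling of the libraries, since the median was -0.02 after quantile normalization and -0.19 without CC-1690 replicate 2, and CC-1690 replicate 2, which had the largest summed FPKM, was also the highest CC-1690 library for LHCBM6 at 6927 FPKM. None of 7 tested genes for cytochrome b6f and the chloroplast ATP synthase was a DEG (median 0.27, with ATPC1 at 0.63, ATPD1 at 0.36 and ATPG1 at 0.29), and 1 was higher in CC-125 by the moderated test. In the Calvin-Benson cycle none of 14 genes was a DEG (median 0.57), while 7 were higher in CC-125 and 1 was higher in CC-1690 by the moderated test, among them FBP1 (400 ± 15.2 and 158 ± 53.1 FPKM, 1.41), GAPA1 (1.14) and PGK1 (1.12), and 2 of the 14 were DEGs after quantile normalization, GAPA1 among them (1.40, adjusted p = 7.34e-05). None of 24 listed genes for chlorophyll synthesis was a DEG (median 0.10, with 8 and 3 by the moderated test), and the largest differences were those of UROS1 (1.29), PBGD2 (-1.26) and HEMN1 (1.22). The list did not hold CHL27A, the aerobic cyclase of the pathway named above, which was a DEG at 3.58.

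Several housekeeping lists had medians below 0, all nearer to 0 than a 2-fold difference. None of 73 genes for cytosolic ribosomal proteins was a DEG, 45 were higher in CC-1690 and 0 were higher in CC-125 by the moderated test, and the median was -0.47, or -0.11 after quantile normalization and -0.28 without CC-1690 replicate 2. The members with the largest differences were RPP14 (-1.16), which its annotation names as a subunit of ribonuclease MRP and not of the ribosome, RPL15 (-1.10) and RPL35 (-0.92). Of 53 genes for DNA replication and cell division 51 were tested, and the moderated test called 30 higher in CC-1690 and 3 higher in CC-125 (median -0.76). CYCD5 (0.455 ± 0.0806 and 3.12 ± 0.662 FPKM, log2 difference -2.52) and CYCD2 (10.4 ± 0.701 and 35.3 ± 7.08 FPKM, -1.73), both D-type cyclins, were the 2 DEGs, while CYCD4, another D-type cyclin, was higher in CC-125 without being a DEG (1.66 ± 0.30). Only 19 of 127 histone genes were tested in these poly-adenylated libraries and none was a DEG (median 0.58, with 9 and 3 by the moderated test and the largest differences in HTV3 at -1.70, HON1 at 1.50 and HAV2 at -1.33). A pair of further lists, chosen after the values were seen, had no DEG. The proteasome list (26 genes) had a median of -0.81 with 20 higher in CC-1690 and 0 higher in CC-125 by the moderated test, led by RPN15 (-1.49), RPT5 (-1.04) and PBA1 (-1.0). The list of the mitochondrial respiratory chain and ATP synthase (88 genes) had a median of -0.51 with 56 higher in CC-1690 and 9 higher in CC-125, led by QCR8 (-1.57), NUOA8 (-1.53) and COX191 (-1.47).

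Signalling and surface genes of large families differed in both directions. Of 79 nucleotide cyclases 65 were tested, 12 were DEGs higher in CC-125 and 5 were DEGs higher in CC-1690 (median 0.50, with 37 and 15 by the moderated test). Cre02.g074800 was at 10.7 ± 1.10 and 0.435 ± 0.130 FPKM (4.37 ± 0.24), whereas Cre05.g237800 (0.228 ± 0.10 and 5.94 ± 0.640 FPKM, -4.25) and Cre05.g236650 (0.122 ± 0.0877 and 3.86 ± 0.343 FPKM, -4.22) were nearly silent in CC-125. Of the 5 cyclases higher in CC-1690, 4 were nearer to the CC-125 level in CC-124 and in CC-4533 and none was in CC-1009 or CC-1691. Of 28 genes with scavenger receptor or lectin domains 19 were tested, 6 were DEGs higher in CC-125 and 1 was a DEG higher in CC-1690 (median 0.64, with 12 and 1 by the moderated test), with Cre06.g306900 (4.15), Cre16.g654950 (3.25) and Cre10.g458850 (3.11) in the lead. The 1 DEG higher in CC-1690 was lost without CC-1690 replicate 2. Among 14 photoreceptor genes the channelrhodopsin CHR1 (146 ± 21.6 and 39.9 ± 3.84 FPKM, 1.86) and the histidine kinase rhodopsin HKR1 (29.9 ± 1.88 and 11.0 ± 1.18 FPKM, 1.44) were DEGs, the cryptochrome PCRY1 was not (1.26), and neither CHR1 nor HKR1 was a DEG without CC-125 replicate 1 (both adjusted p = 0.0182). The median of that list was 0.50, with 8 and 2 by the moderated test. Its DEGs were 14.3% of the list, against 10.5% of all genes, and the moderated test called 71.4%, against 69.0% of all genes. None of 11 tested genes of 35 for proteins of transposable elements was a DEG (median 0.17, with 4 and 2 by the moderated test and the largest differences in Cre16.g684500 at -1.03, Cre13.g571580 at 0.96 and CSB42 at -0.87).

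**Figure D4:**
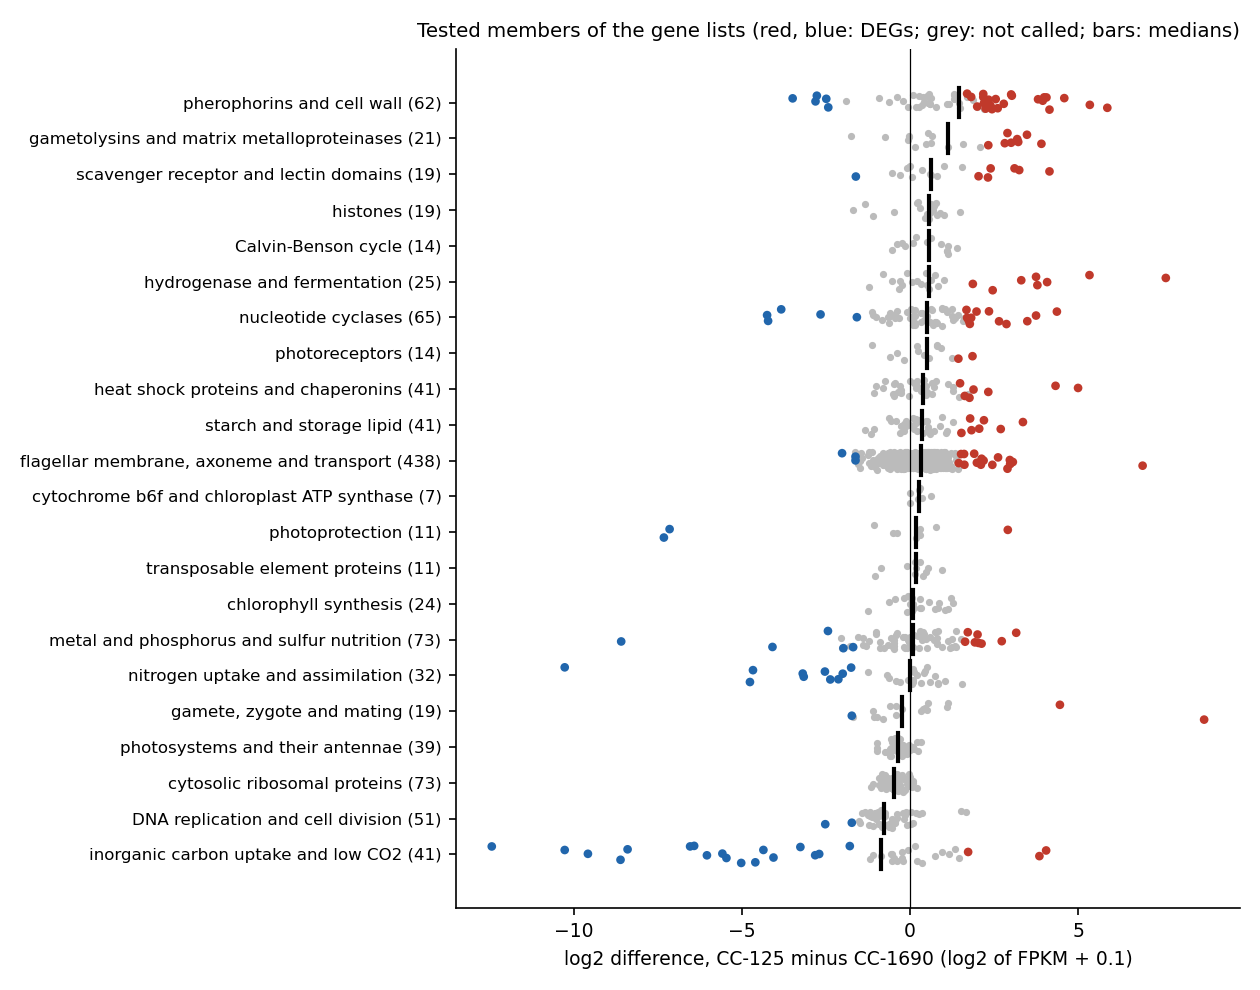
Log2 difference between CC-125 and CC-1690 (x axis) of every tested member of 22 gene lists, with the number tested in parentheses. DEGs are red (higher in CC-125) or blue (higher in CC-1690), other members are grey and bars are medians, which run from -0.86 for inorganic carbon uptake to 1.47 for pherophorins and cell wall.

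Some of the largest differences were in genes without a symbol. Of the 1455 DEGs 340 had a symbol, beside 4326 of all 17611 genes listed. Cre13.g603550 was at 245, 149, 199 and 140 FPKM in CC-125 and at 0.38, 0.83, 0.59 and 0.61 FPKM in CC-1690 (log2 difference 8.03, standard error 0.31), and it was also high in CC-4533 (mean of 284 FPKM). Cre01.g045200 was at 226 ± 60.7 and 0.835 ± 0.399 FPKM (7.97 ± 0.39), and its mean was between 0.83 and 24.3 FPKM in the other strains. In the other direction, Cre12.g555700, a DnaJ-like protein, was at 0.07, 0.06, 0.07 and 0.04 FPKM in CC-125 and at 69.5, 61.4, 73.9 and 74.2 FPKM in CC-1690 (-8.77 ± 0.14). Cre16.g685100 (0.292 ± 0.158 and 59.0 ± 11.9 FPKM, -7.33) and Cre03.g204577, another DnaJ-like protein (0.0700 ± 0.00816 and 16.4 ± 2.67 FPKM, -6.59), completed the 3 largest. These 3 had the distribution of the low-CO2 genes over the strains, with Cre12.g555700 at means of 0.035 FPKM in CC-4533, 0.62 FPKM in CC-124 and 53.4 to 74.7 FPKM in the other 3 strains.

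The most abundant DEGs higher in CC-125 included genes with no known function. Cre13.g579450, annotated as a membrane transporter found only in Chlamydomonas, was at 2137, 2768, 2667 and 2560 FPKM in CC-125 and at 248, 430, 211 and 266 FPKM in CC-1690 (log2 difference 3.18, standard error 0.19). Cre13.g580000 (1604 ± 143 and 203 ± 64.0 FPKM, 3.03) and Cre08.g374100 (922 ± 151 and 141 ± 73.9 FPKM, 2.83) have no annotation, and Cre09.g407700 encodes a cysteine endopeptidase (634 ± 21.3 and 163 ± 5.14 FPKM, 1.96). Each of these 4 had a higher mean in CC-4533 than in CC-1690, from 348 to 975 FPKM. In each of them a set 1 strain was above CC-1690 too. CC-124 had means of 666 FPKM (Cre13.g579450) and 534 FPKM (Cre13.g580000), where CC-1009 was below CC-1690 at 153 and 128 FPKM. CC-1009 had means of 293 FPKM (Cre08.g374100) and 288 FPKM (Cre09.g407700), where CC-124 was below CC-1690 at 118 and 116 FPKM.

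A few genes were listed at 0 in all libraries of one strain and above 1 FPKM in all libraries of the other. There were 8 such genes at 0 in CC-1690 and 1 at 0 in CC-125 (Cre11.g801279, at 4.45 FPKM in CC-1690, with a range of 3.30 to 6.44 FPKM). A value of 0 is reached more easily at lower depth, and the relative depth was 0.585 to 0.819 in CC-1690 and 1.22 to 1.47 in CC-125. The part of the depth in these counts was not tested. Cre02.g142867, annotated as a putative dioxygenase that modifies methylated cytosine, was at 9.07 FPKM in CC-125 (8.28 to 10.4 FPKM) and at 0 in CC-1690, and its means were 9.76, 6.94 and 20.4 FPKM in CC-124, CC-4532 and CC-1691 and 0 and 0.09 FPKM in CC-1009 and CC-4533. Cre15.g801780 had the same distribution, with 7.23 FPKM in CC-125, 7.29, 4.79 and 15.7 FPKM in CC-124, CC-4532 and CC-1691, and at most 0.055 FPKM in the remaining strains. Cre04.g217220 (3.29 FPKM in CC-125) and Cre04.g800430 (3.87 FPKM) had means above 0 in each of the other strains.

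The DEGs were spread over all chromosomes, as read from the gene identifiers. The share of tested genes that were DEGs ran from 8.10% of 852 on chromosome 7 to 19.9% of 201 on chromosome 15, with 17.8% of 460 on chromosome 11 and 15.0% of 394 on chromosome 4. On chromosome 11 more DEGs were higher in CC-1690 (51) than in CC-125 (31), unlike on the other 16 chromosomes, where those higher in CC-125 were more numerous. There were 19 runs of 3 or more neighbouring tested genes that were DEGs in one direction, 59 genes in all. A run of 4 pherophorins on chromosome 17, PHC8, PHC1, PHC6 and PHC7, was higher in CC-125 by 3.95 to 5.87 on the log2 scale, with PHC8 at 306 ± 93.9 and 17.8 ± 1.82 FPKM, PHC1 at 83.5 ± 52.2 and 4.80 ± 1.20 FPKM and PHC7 at 10.9 ± 7.10 and 0.538 ± 0.200 FPKM. A run of 4 genes without annotation on chromosome 11 (Cre11.g467584, Cre11.g467586, Cre11.g467588 and Cre11.g467589) was higher in CC-1690, with means of 0.695 to 0.925 FPKM in CC-125 and 3.32 to 7.47 FPKM in CC-1690, although the second of these lost its call without CC-1690 replicate 3 (adjusted p = 0.0125). The flagellar genes FAP211, FAP310 and FAP212 on chromosome 2 made a run of 3, higher in CC-125 by 1.52 to 2.90. FAP310 was at 292 ± 56.6 and 39.4 ± 9.84 FPKM and FAP212 at 116 ± 35.5 and 18.4 ± 3.30 FPKM, while FAP211 (249 ± 15.2 and 87.3 ± 12.8 FPKM) was past the threshold only with all libraries or without CC-1690 replicate 2 (adjusted p up to 0.0338 without CC-1690 replicate 4). Genes that lie side by side and resemble each other, such as the pherophorins, may share reads.

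For each DEG, the libraries of the 2 strains were set beside the remaining 20. The DEGs were picked for a difference between these strains, and the same counts were not made over all genes tested. Of the 897 DEGs higher in CC-125, the 4 CC-125 libraries alone lay above all other strains in 330, the 4 CC-1690 libraries alone lay below all other strains in 227, both did in 82 and neither did in 258. Of the 558 DEGs higher in CC-1690, the CC-1690 libraries alone lay above all others in 182, the CC-125 libraries alone lay below all others in 78, both did in 18 and neither did in 280. FMG1B was of the kind set by a low level in CC-1690 and HSP22F of the kind set by a high level in CC-125.

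Over all 1455 DEGs, the mean of CC-4533 was nearer to CC-125 than to CC-1690 in 955 (65.6%), on the log2 scale. In the 4 other strains of library set 1 this share was between 44.3% (CC-124) and 48.7% (CC-1009). Shares of this kind were not counted over all genes tested. CC-4533 shares the library set with CC-125 and differs from it in mating type. The resemblance was stronger among the DEGs higher in CC-1690 (456 of 558 nearer to CC-125 in CC-4533) than among those higher in CC-125 (499 of 897), and the part of the library set in it was not tested.

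**Figure D5:**
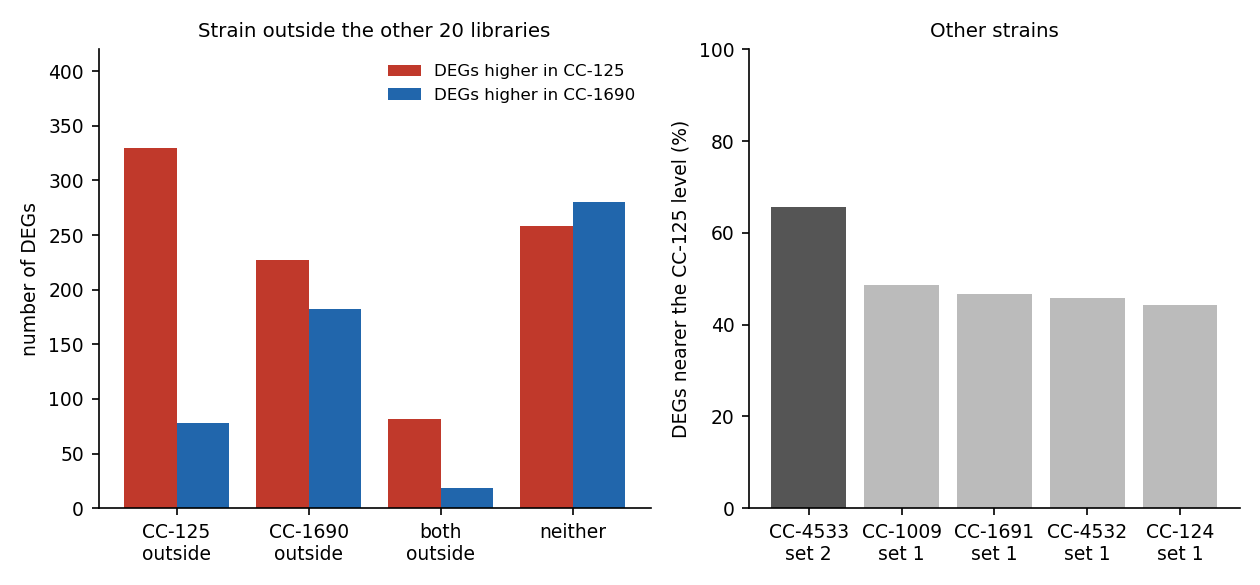
Left, the number of DEGs for which the CC-125 libraries, the CC-1690 libraries, both or neither lay outside the range of the other 20 libraries, by direction. Right, the percentage of the 1455 DEGs for which each other strain was nearer to the CC-125 level, 65.6% in CC-4533 (set 2, dark) and 44.3% to 48.7% in the strains of set 1.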

How the data were processed

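Poly-adenylated RNA of 28 cultures was sequenced, 4 for each of 7 strains, and the 8 libraries of CC-125 and CC-1690 were compared. Strain, replicate and mating type were taken from the labels. The FPKM values deposited by the authors, given to 2 decimals, were made by the authors with DESeq2 from strand-specific gene counts (featureCounts) of single-end reads of 50 nt, which STAR had aligned to version 6.1 of the genome of CC-4532. A read with several locations was kept at 1 of them at random, so close copies may share reads. Tool versions are not given in the sources used here. A second deposited table of strain means was not used. By the methods of the study, 1 inoculation gave all flasks of CC-125 or CC-4533 and 2 gave those of each other strain, and which culture belonged to which batch is not given. P-values rest on the spread between the 4 cultures of a strain, taken as separate samples. This spread was pooled over the 7 strains and moderated by the fit, so it is not that of CC-125 or CC-1690 alone.

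Of 17611 genes listed, 4326 carried a symbol, and in 1 line a definition split over columns was rejoined. All 28 libraries were fitted with limma (version 3.58.1, R 4.3.3) on the scale of log2(FPKM + 0.1), strain being the only term and the variance following a trend, over genes with a mean above 1 FPKM in any strain, and the contrast was CC-125 minus CC-1690. A fold change on this scale understates the change of low genes. DEGs passed limma's treat test against 2-fold (Benjamini-Hochberg adjusted p-value below 0.01) with a mean above 1 FPKM in either strain of the pair, in place of the s-values of the paper. Adjusted p-values in the text are from this test unless the moderated test (adjusted p-value below 0.05) is named, and the value after ± beside a log2 difference is its standard error.

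The comparison, the gene lists (by symbol or definition) and the tests were chosen with earlier results of these data known. The genes named are, among DEGs without overlap, the 8 with a symbol and the 3 without one with the largest difference in each direction, the 5 most abundant DEGs in each direction, the 3 members with the largest difference in each list, a few genes as checks, the members of the 2 runs of 4 and of the first of the runs of 3 in chromosome order, and others chosen after their values were seen, mostly genes of the same pathways (among them HLA3, LCR1, CCM1, EPYC1, CAH8, HYDA1, HYDA2, HYDEF1, PFL1, VIPP2, IDA5, ZRT5, PTB3 and the copper genes). A strain was nearer to CC-125 where its mean of log2 values was. Relative depth was estimated from 205 genes with reads in at most 10 libraries by assigning whole numbers of reads to their FPKMs. Alternatives were other pseudocounts, filters, scalings, tests and thresholds, a fit of the 8 libraries alone, a fit without CC-4533, the replicate number as a block, and each library left out. Tables and figures were made in Python with pandas and matplotlib.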

Additional observations from a re-analysis of the deposited data

Results flagged for a closer look

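In each strain the 4 values of every named gene with a mean above 1 FPKM, and of 3 measures of the libraries, were searched for a sample far from the other 3 by Dixon's criterion. Of 266 groups of 4 values 15 held such a sample, and chance alone flags about 1 in 20.

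CC-125 replicate 1 was the sample apart in PHC6 (163 FPKM, against 39.7 to 54.2 FPKM in the others), PHC7 (21.5 FPKM, against 6.81 to 8.39 FPKM), MMP19 (11.0 FPKM, against 6.06 to 6.87 FPKM), CAH8 (132.0 FPKM, against 105 to 108 FPKM) and ACS3 (998 FPKM, against 703 to 731 FPKM). It was the low sample in PSRP1 (344 FPKM, against 526 to 558 FPKM) and Cre06.g306900 (1.98 FPKM, against 2.43 to 2.44 FPKM).

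CC-1690 replicate 2 was the high sample in CHL27A (88.2 FPKM, against 37.9 to 46.1 FPKM), CHL27B (590.4 FPKM, against 441 to 458 FPKM), VIPP1 (94.9 FPKM, against 66.8 to 70.7 FPKM), PGK1 (531 FPKM, against 356 to 372 FPKM) and RPN15 (38.6 FPKM, against 27.0 to 28.5 FPKM). It also had the largest summed FPKM and the lowest relative depth of the CC-1690 libraries, and the part of these in these 5 genes was not tested. CC-1690 replicate 3 was low in FAP338 (0.89 FPKM, against 2.00 to 2.19 FPKM), CC-125 replicate 2 was low in HKR1 (27.1 FPKM, against 30.6 to 31.1 FPKM), and CC-125 replicate 4 was high in LCI33 (14.7 FPKM, against 8.98 to 9.69 FPKM).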

How the results depend on the processing

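The number of DEGs was 960 with a pseudocount of 1 (339 higher in CC-1690), and 3728 by the moderated test with an estimate above 2-fold (1961 higher in CC-125 and 1767 higher in CC-1690). With a filter at 5 FPKM 348 DEGs were higher in CC-1690. Leaving out 1 library gave 1264 to 1381 DEGs, 786 to 871 of them higher in CC-125 and 468 to 520 higher in CC-1690. With a pseudocount of 1, 953 DEGs were the same genes, and after quantile normalization 1256. Of 103 named genes that were called, 91 kept the call in every alternative. The replicate numbers were not taken as pairs, since deviations of same-numbered libraries correlated at 0.19, 0.11, -0.02 and 0.09 and 2 of the 4 numbers correlated best with their own. With the replicate block there were 1423 DEGs, 1413 of them DEGs without it.

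Medians of lists moved with the filter, the pseudocount or the scaling. With no filter they were -0.07 for photoprotection, -0.24 for nitrogen, 1.20 for pherophorins, 0.66 for metalloproteinases, 0.23 for histones, 0.43 for cyclases, 0.38 for scavenger and lectin domains and -0.02 for transposable elements, the last a change of sign. With the filter at 5 FPKM they were -0.71 for inorganic carbon, 0.34 for nitrogen, 0.35 for metals, phosphorus and sulfur, 1.70 for pherophorins, 2.33 for metalloproteinases, 0.81 for photoreceptors, 0.10 for cyclases, 1.01 for scavenger and lectin domains and -0.87 for the 1 gene left of transposable elements. With a pseudocount of 1 they were 0.45 for hydrogenase and fermentation, 1.17 for pherophorins, 0.93 for metalloproteinases and 0.32 for cyclases. After quantile normalization they were -0.02 for photosystems, 0.46 for hydrogenase and fermentation, -0.11 for ribosomal proteins and 0.42 for cyclases. With 1 library left out, the median was 0.51 to 0.62 for hydrogenase and fermentation and 0.42 to 0.55 for cyclases. It was -0.47 to -0.19 for photosystems, -0.59 to -0.28 for ribosomal proteins, 0.14 to 0.45 for cytochrome b6f and ATP synthase, -0.37 to -0.02 for mating, 0.00 to 0.30 for chlorophyll and 0.07 to 0.26 for photoprotection, and -0.19, -0.28, 0.45 and 0.30 are the values without CC-1690 replicate 2. The median for nitrogen was -0.08 to 0.01. The filters test other sets of genes, and beyond that the cause was not tested.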
